A study of Mus musculus with 5 samples.

Results

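The genes described here are 10 members of the ADAM and TIMP families. ADAM proteins are membrane-bound and secreted metalloproteases that cut proteins at and around the cell surface, and TIMP proteins are inhibitors of metalloproteinases. The 10 genes were Adamdec1, Adam8, Adam9, Adam10, Adam15, Adam17, Adam19, Timp1, Timp2 and Timp3, each matched by symbol to 1 of the 41388 Ensembl gene IDs in the tables. RNA was sequenced from macrophages sorted from the outer layer (adventitia) or the inner layer (intima) of the aorta in mice. The 3 adventitia libraries came from C57BL/6 mice with the genotype ApoE-/- kept for 28 weeks on high-fat food (the design text names 6 mice), and live CD64+ cells were sorted from the adventitia of the whole aorta. The 2 intima libraries came from C57BL/6 mice, 5 pooled per library, and live CD64+ CD11c+ MHC II+ cells were sorted from the thoracic aorta once the adventitia had been removed. Layer, genotype, aortic segment and sort gate differed together between the groups, and a diet is given for the adventitia mice only, so their shares in any difference cannot be told apart. The age of the mice, and how the 6 mice were divided among the adventitia libraries, are not given in the sources used here, so p-values measure only how much these libraries vary, which may in part be technical.

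ADAM proteases are made as inactive precursors that lose an inhibitory prodomain and then release the outer part of other membrane proteins, a step called shedding. ADAM10 and ADAM17 are the main shedding enzymes of macrophages. ADAM17 frees tumour necrosis factor from its membrane-bound form, and ADAM10 makes the first cut in ligand-activated Notch receptors. TIMP proteins block matrix metalloproteinases by filling the active site with their first residues, and TIMP3 also blocks ADAM17. ADAMDEC1 is a secreted ADAM-like protease made by macrophages and dendritic cells that lacks most of the other domains of the family.

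The site that holds the catalytic zinc sets the listed proteases apart by sequence, independently of the reads counted here. The coding bases of this zinc-binding signature are shown because Adamdec1, whose level differed most between the layers among the 10 genes, also differs there in its last codon. They are written 5′ to 3′ on the coding strand, from GENCODE M21 transcripts (GRCm38), and the capitals mark the last codon.
Adamdec1: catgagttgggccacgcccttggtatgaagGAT
Adam8: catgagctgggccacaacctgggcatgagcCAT
Adam9: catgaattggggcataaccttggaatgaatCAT
Adam10: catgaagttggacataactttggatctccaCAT
Adam15: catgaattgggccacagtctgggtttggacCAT
Adam17: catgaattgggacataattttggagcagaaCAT
Adam19: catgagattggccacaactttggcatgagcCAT
The last of these 11 codons is CAT, a histidine codon, in the 6 ADAM genes and GAT, an aspartate codon, in Adamdec1. The search asked for histidine there in the ADAM genes and for aspartate in Adamdec1, so this residue was set by the search. It also fixed further residues of the signature in all 7 genes, so part of the identity between the sites was set by it. The Adamdec1 site lies at chr14:68570127-68570159 on the minus strand, in coding exon sequence (exon 11 of the transcript). Over the 33 bases, Adamdec1 was identical to Adam8 and to Adam9 at 25 positions and to Adam10 at 17. Pairs of the 6 ADAM genes were identical at 19 positions (as Adam8 and Adam10) to 29 (Adam8 and Adam19), an overlapping range. The Adam10 site was the only one of the 7 split by an intron, between exons 9 and 10, and its bases lie within chr9:70754296-70761585 on the plus strand. The other sites lie in single coding exons, at chr7:139987893-139987925 (Adam8), chr8:24990326-24990358 (Adam9), chr3:89344780-89344812 (Adam15) and chr12:21336732-21336764 (Adam17) on the minus strand and at chr11:46125050-46125082 (Adam19) on the plus strand.

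The start of the inhibitory edge of the TIMP proteins is shown as well, for the 3 inhibitors, whose levels compared differently between the layers. Nothing about those levels is read from these bases. The capitals mark the codons of the paired cysteines that open this edge.
Timp1: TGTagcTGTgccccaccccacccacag
Timp2: TGCagcTGCtccccggtgcacccgcaa
Timp3: TGCacaTGCtctcccagccatccccag
All 3 have both cysteine codons, which the search required along with further residues of this stretch. Part of the identity between these sites was therefore set by the search. Over the 27 bases, Timp1 and Timp2 were identical at 18 positions, Timp2 and Timp3 at 17, and Timp1 and Timp3 at 16. These bases are coding, in exon 2 of Timp1 at chrX:20871111-20871137 and in exon 1 of Timp3 at chr10:86300923-86300949 on the plus strand, and in exon 1 of Timp2 at chr11:118354986-118355012 on the minus strand.

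The libraries held 3941381 to 10076142 counted reads in the adventitia and 14970204 and 20806925 in the intima. A read was found for 23289 to 25738 genes in the adventitia libraries and for 17489 and 16374 in the intima libraries, so fewer genes were detected at greater depth in the intima. All 12 macrophage markers, among them Csf1r, Adgre1, Cd68 and Fcgr1, had reads in every library, with a summed level of 29082 to 35799 CPM (each gene's reads relative to all counted reads of its library) in the adventitia and 28091 and 21815 CPM in intimal cells. Markers of other cell types were also present. The 12 endothelial markers summed to 34.4 to 61.4 CPM in adventitial cells and 1028 and 1069 CPM in intimal cells, and the 10 fibroblast markers to 684 to 1563 CPM against 317 and 319 CPM. In bulk libraries, fewer cells of a type and less RNA per cell cannot be told apart.

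Differences between the layers were fitted over all genes with edgeR's quasi-likelihood test and are given as log2 values, intima minus adventitia. All 10 members passed the filter on low counts, Adamdec1 only through the intima, where it was high. With Benjamini-Hochberg adjustment over the 13408 genes tested, 1 of the 10 was called at an adjusted p under 0.05, Adamdec1, against 90 genes in all (0.671% called, 0.522% as higher and 0.149% as lower in the intima). The calls over all genes were 70 higher and 20 lower, but 46 and 29 with upper-quartile and 59 and 34 with library-size scaling, and 500 and 725 with DESeq2. The members were chosen by family name among genes whose levels in these libraries, and whose differences between the layers, were already known. The values below therefore describe these libraries, and nothing is read from that count. The median log2 difference was 0.57 over the members and 0.14 over all genes tested, and the median absolute difference was 0.99 against 1.19. For 5 members the 2 groups had CPM ranges without overlap, 2 of them higher and 3 lower in the intima; this held for 40.5% of all tested genes (14.1% higher, 26.4% lower). After scaling with TMM factors, edgeR's default correction for library composition, the same count was 4 higher and 2 lower, against 40.9% of all tested genes (17.7% higher, 23.2% lower).

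**Figure D1:**
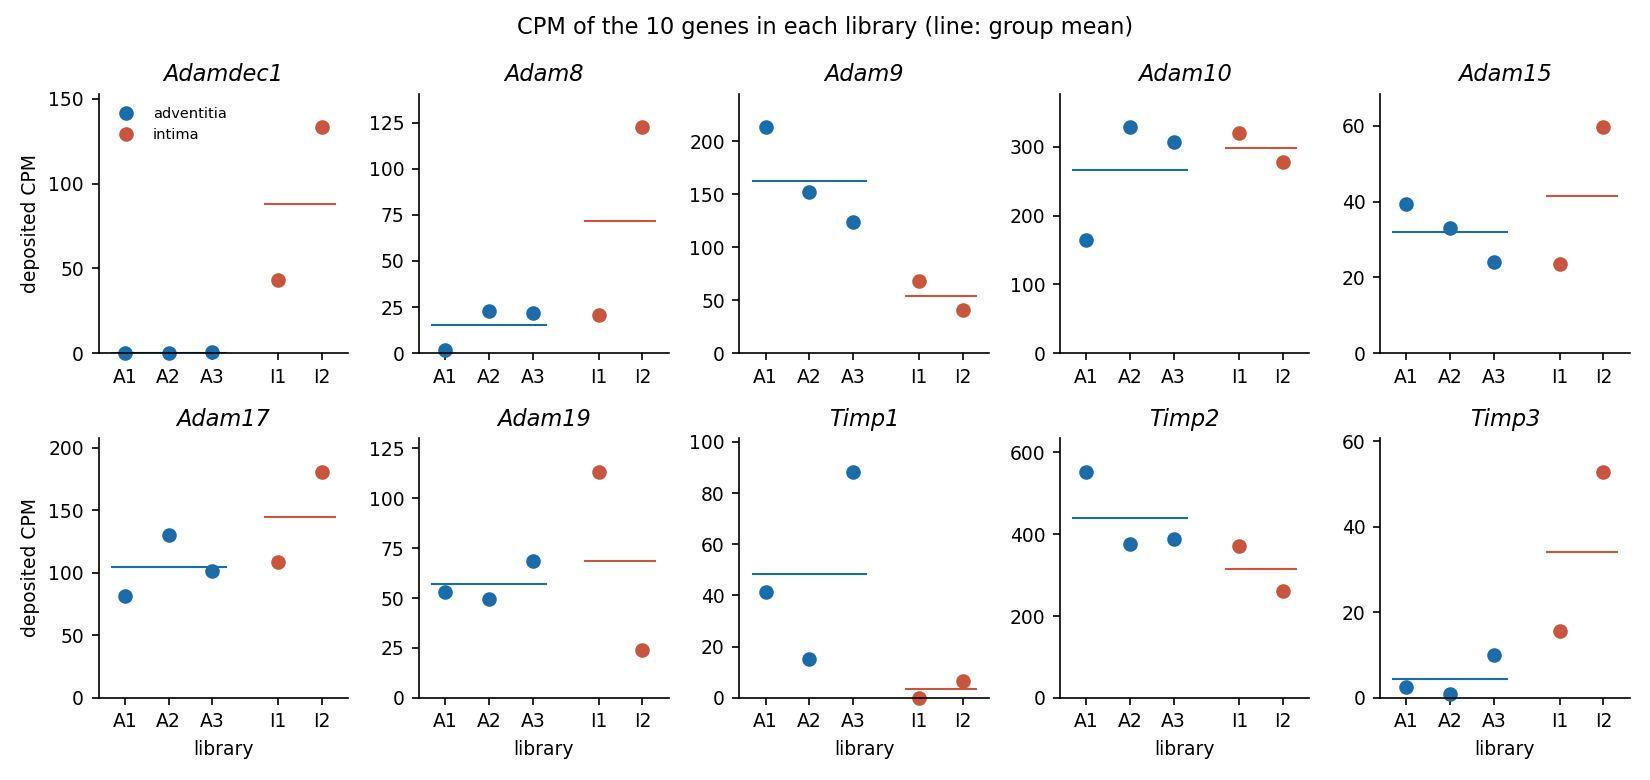
Each panel plots the deposited CPM of 1 gene in the 3 adventitia libraries (A1 to A3, blue) and the 2 intima libraries (I1 and I2, red), with a line at each group's mean and an axis that starts at 0. Adamdec1 lies at no more than 0.597 CPM in adventitial cells and at 43.2 and 133 CPM in intimal cells, while the points of Adam10, Adam15, Adam17, Adam19 and Adam8 overlap between the groups.

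Adamdec1 (ENSMUSG00000022057, chr14:68563388-68582086 in GRCm38) was nearly unread in the adventitia and clearly expressed in the intima. Its reads numbered 0, 3 and 6 in adventitia replicates 1, 2 and 3 and 647 and 2772 in intima replicates 1 and 2. In CPM these were 0, 0.298 and 0.597 against 43.2 and 133. All 3 adventitia libraries were at or near the level of a few reads, and the groups were far apart. With 9 reads in the adventitia, the intima level was 292 times the adventitia level per TMM-scaled library, with a 95% counting interval of 154 to 639 (exact Poisson, counting error only). The fitted log2 difference was 8.13 with an SE of 1.14 over 3 and 2 libraries (edgeR adjusted p = 0.00792). It was not called without adventitia replicate 1, where the log2 difference was 7.66 and the edgeR adjusted p = 0.118; across all 13 alternatives, DESeq2 and voom included, the adjusted p ran from 4.8e-13 to 0.118.

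Endothelial markers were also far higher in the intima, where 11 of 12 had a read in each library, Cldn5 being at 0 in replicate 1 and Erg at 0 in replicate 2. Pecam1, an adhesion molecule of endothelial cells and some leukocytes, was at 193 and 326 CPM there. Cdh5, the endothelial cadherin, was at 89.5 and 28.4 CPM, and Kdr, the endothelial receptor for vascular growth factor, at 0.2 and 0.0481 CPM, below its 1.27 to 1.89 CPM in adventitial cells. The summed marker level was 1028 and 1069 CPM in intima replicates 1 and 2, in which Adamdec1 was at 43.2 and 133 CPM. Of the 12 markers 6 were higher in replicate 2, as Adamdec1 was, and 6 were lower. Besides Pecam1 and Cldn5, those higher were Tek (22.0 and 79.1 CPM), Tie1 (15.9 and 56.6 CPM), Esam (31.9 and 110 CPM) and Egfl7 (68.3 and 120 CPM). Besides Cdh5 and Kdr, those lower were Ptprb (287 and 136 CPM), Vwf (167 and 129 CPM), Emcn (134 and 71.8 CPM) and Erg (19.1 and 0 CPM). The part of other cells in the Adamdec1 reads was not tested.

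Of all tested genes, the 5 whose pattern over the 5 libraries was nearest to that of Adamdec1 were Gja5, Ifnb1, Myct1, Tinagl1 and Dnase1l3. Nearness was the root mean square distance between log2 TMM-scaled CPM values centred on each gene's mean, with 0.5 CPM added, and it ran from 0.319 for Gja5 to 0.534 for Dnase1l3. Gja5 encodes the gap junction protein connexin 40 of arterial endothelium. It was at 0 to 0.598 CPM in adventitial cells and 37.7 and 76.4 CPM in intimal cells after TMM scaling. Dnase1l3, a secreted nuclease, was far more abundant, at 8.49 to 43.1 TMM-scaled CPM against 1774 and 2838. With only 5 libraries in 2 groups this likeness is a description. Gja5, Ifnb1, Myct1 and Tinagl1 had 7, 1, 3 and 21 reads in the adventitia libraries together. Like Adamdec1, these genes passed the filter on low counts only through the intima, where they were high.

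Adam10 and Adam17, the shedding enzymes, had overlapping levels in the layers. Adam10 (ENSMUSG00000054693, chr9:70678997-70780229) had 646, 3306 and 3092 reads in the adventitia, or 164, 328 and 308 CPM, and 4780 and 5788 reads in the intima, or 319 and 278 CPM. Adventitia replicate 1 was the low library and the groups overlapped. The log2 difference was 0.38 (SE 0.47), and with upper-quartile scaling it turned to -0.08. Adam17 (ENSMUSG00000052593, chr12:21323509-21373632) had 322, 1312 and 1019 reads in the adventitia, or 81.7, 130 and 101 CPM, and 1625 and 3760 reads in the intima, or 109 and 181 CPM. Its ranges overlapped in CPM and just missed each other after TMM scaling, at 124 CPM in adventitia replicate 2 and 127 CPM in intima replicate 1. Its log2 difference was 0.68 (SE 0.49), and 97 of its exon bases are shared with Iah1 on the other strand. Iah1 had 77, 376 and 660 reads in the adventitia and 1254 and 904 in the intima, and its part in the Adam17 reads was not tested. The edgeR adjusted p-values were 0.693 and 0.462, which does not show that the levels are equal.

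Adam9, a widely expressed ADAM that sheds growth factor precursors and binds integrins, was lower in every intima library than in every adventitia library. Adam9 (ENSMUSG00000031555, chr8:24949611-25016922) had 839, 1527 and 1246 reads in the adventitia and 1015 and 841 in the intima. In CPM these were 213, 152 and 124 against 67.8 and 40.4, so the ranges did not overlap. The log2 difference was -1.31 (SE 0.53, adjusted p = 0.175 in edgeR) and missed the threshold. It was negative in all 13 alternatives, from -1.97 to -0.83.

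Adam8, an ADAM of myeloid cells that needs no partner to process its own precursor, was set apart by single libraries. Adam8 (ENSMUSG00000025473, chr7:139978932-139992562) had 7, 231 and 220 reads in the adventitia, or 1.78, 22.9 and 21.9 CPM, and 313 and 2547 reads in the intima, or 20.9 and 122 CPM. Adventitia replicate 1 was low, intima replicate 2 was high, and the other 3 libraries lay together. The fitted log2 difference, 2.32 (SE 1.06, edgeR adjusted p = 0.222), was 0.77 without intima replicate 2. Neutrophil markers, which summed to 106, 37.1 and 46.2 CPM in adventitial cells and 0.267 and 41.4 CPM in intimal cells, were highest in adventitia replicate 1, where Adam8 was lowest, and higher in intima replicate 2 than in replicate 1, as Adam8 was. In intima replicate 2 that sum came mainly from S100a9 (22.7 CPM) and Cxcr2 (17.5 CPM), with S100a8 at 1.01 CPM. Camp and Ngp were at 0.0481 CPM each there, and Ly6g, Mpo, Elane and Retnlg at 0. The part of neutrophil RNA in the Adam8 reads was not tested. Adam8 shares 46 exon bases with the antisense gene Gm16201, which had 212 reads in intima replicate 2 and none in replicate 1.

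Adam19 and Adam15, like Adam8, Timp1 and Timp2, differed more on the log2 scale between the intima libraries than between the groups. Adam19 (ENSMUSG00000011256, chr11:46055992-46147343), an ADAM that processes neuregulin precursors, was at 53, 49.5 and 68.6 CPM in adventitial cells and at 113 and 24 CPM in intimal cells, 1 library above and 1 below all adventitia values. Its log2 difference was 0.55 (SE 0.72, adjusted p = 0.720 in edgeR), and it was -1.24 without intima replicate 1 and 1.38 without intima replicate 2. The intima libraries were 2.38 apart on the log2 scale for Adam19 and 1.16 for Adam15, against a median of 1.09 over all genes tested. Adam15 (ENSMUSG00000028041, chr3:89338542-89349996), which can bind integrins through its disintegrin domain, was at 39.3, 32.9 and 24.1 CPM in adventitial cells and 23.6 and 59.6 CPM in intimal cells. Its log2 difference, 0.59 (SE 0.77, edgeR adjusted p = 0.715), was -0.02 without intima replicate 2. Of the Adam15 exon bases, 1263 are shared with the antisense gene 4731419I09Rik, which had at most 4 reads in any library.

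The inhibitors split 3 ways. Timp2, a soluble inhibitor that also helps MMP14 to activate the gelatinase MMP2, was the most abundant member per length in all 5 libraries. Timp2 (ENSMUSG00000017466, chr11:118301069-118355740) had 2176, 3790 and 3901 reads in the adventitia, or 552, 376 and 388 CPM, and 5539 and 5423 reads in the intima, or 370 and 261 CPM. Both intima values lay under the lowest adventitia value in CPM, that of replicate 1 only just. After TMM scaling they overlapped the adventitia, at 432 and 272 against 359 to 474 CPM. The log2 difference was -0.21 (SE 0.42, adjusted p = 0.832 in edgeR), with a sign that turned without intima replicate 2, to 0.18.

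Timp1, a soluble inhibitor made by stromal and myeloid cells in inflamed tissue, was lower in the intima. Timp1 (ENSMUSG00000001131, chrX:20870166-20874735) had 163, 153 and 887 reads in the adventitia, or 41.4, 15.2 and 88.2 CPM, and 0 and 139 reads in the intima, or 0 and 6.68 CPM. The count of 0 in intima replicate 1 allows a level of up to 0.2 CPM, from a floor of 3 reads, counting error only. The fitted log2 difference, -3.71 (SE 1.70, edgeR adjusted p = 0.223), missed the threshold, and without intima replicate 2, which left the library with no read alone in its group, edgeR gave an adjusted p = 0.0450. Fibroblast markers summed to 789, 684 and 1563 CPM in adventitial cells and 317 and 319 CPM in intimal cells, the same order of libraries as Timp1. Between intima replicates 1 and 2, in which Timp1 was at 0 and 6.68 CPM, 5 of the 10 fibroblast markers were higher in replicate 2 and 5 were lower. Those higher were Col1a1 (0.468 and 81.0 CPM), Col1a2 (21.1 and 79.3 CPM), Pi16 (0.468 and 11.7 CPM), Serpinf1 (12.5 and 36.7 CPM) and Mfap5 (36.6 and 57.9 CPM). Those lower were Dcn (107 and 15.4 CPM), Col3a1 (138 and 37.4 CPM) and Lum, Pdgfra and Dpt, at 0.334, 0.2 and 0.134 CPM and then at 0. The part of fibroblast RNA in the Timp1 reads was not tested.

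Timp3, the inhibitor that binds to the extracellular matrix and blocks ADAM17, had the opposite order. Timp3 (ENSMUSG00000020044, chr10:86300372-86349506) had 10, 10 and 100 reads in the adventitia, or 2.54, 0.992 and 9.95 CPM, and 234 and 1100 reads in the intima, or 15.6 and 52.9 CPM. Both intima libraries lay above all adventitia libraries, and each group spread several-fold within itself. The log2 difference was 3.06 (SE 1.32, adjusted p = 0.198 in edgeR), positive in all 13 alternatives and called in none. Endothelial markers differed between the groups as given above, and the 10 smooth muscle markers summed to 59.9, 43 and 14.4 CPM in adventitial cells and 300 and 111 CPM in intimal cells. Acta2 (145 and 23.5 CPM), Tagln (106 and 49.9 CPM) and Myl9 (6.68 and 19.2 CPM) were above every adventitia value in both intima libraries. Myh11, Des and Actg2 were below every adventitia value there, at no more than 0.401 CPM, and Smtn, Cnn1, Lmod1 and Mylk overlapped between the groups. Timp3 was higher in intima replicate 2 and the smooth muscle sum in intima replicate 1, and the part of either cell type in the Timp3 reads was not tested. Of the Timp3 exon bases, 1733 are shared with Syn3 on the other strand, which had at most 17 reads in any library.

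**Figure D2:**
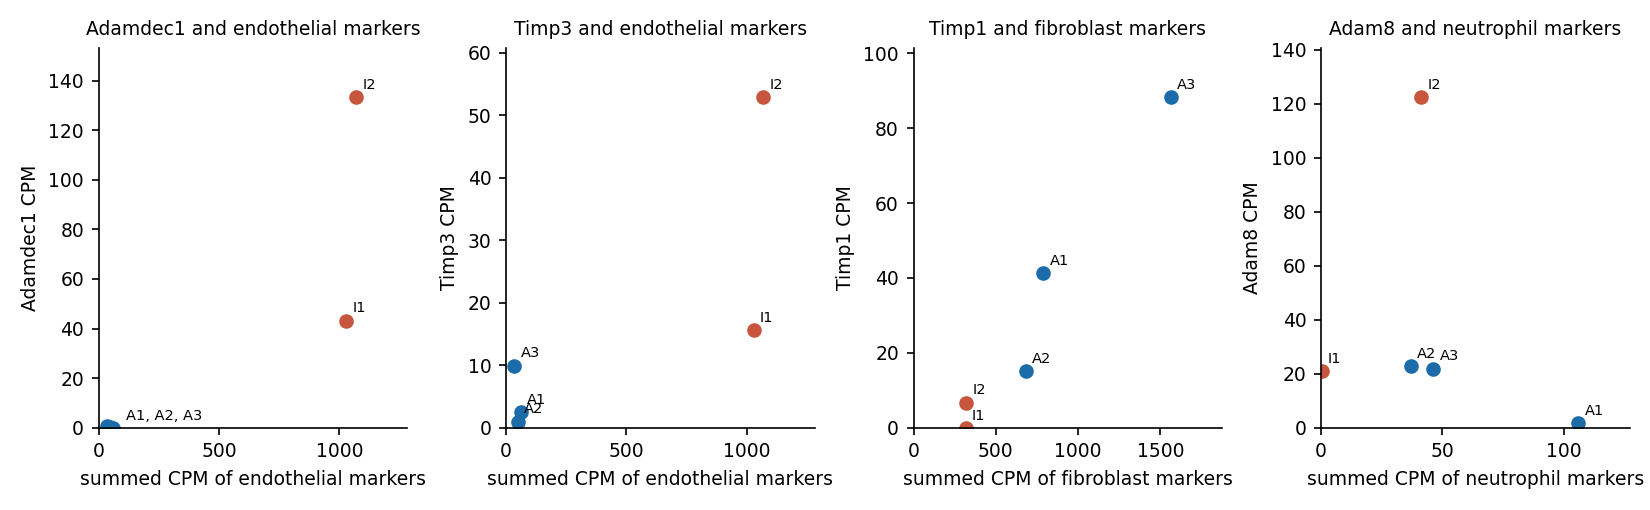
Each panel plots the CPM of 1 gene against the summed CPM of a marker list, with 1 point per library (A1 to A3, adventitia, blue; I1 and I2, intima, red) and both axes from 0. Timp1 orders the libraries as the fibroblast sum does, from 0 CPM at 317 to 88.2 CPM at 1563, Adamdec1 and Timp3 are high only in the 2 libraries with endothelial sums of 1028 and 1069, and Adam8 lies at 1.78 CPM at the highest neutrophil sum, 106, and at 20.9 and 122 CPM in the intima libraries with sums of 0.267 and 41.4.

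**Figure D3:**
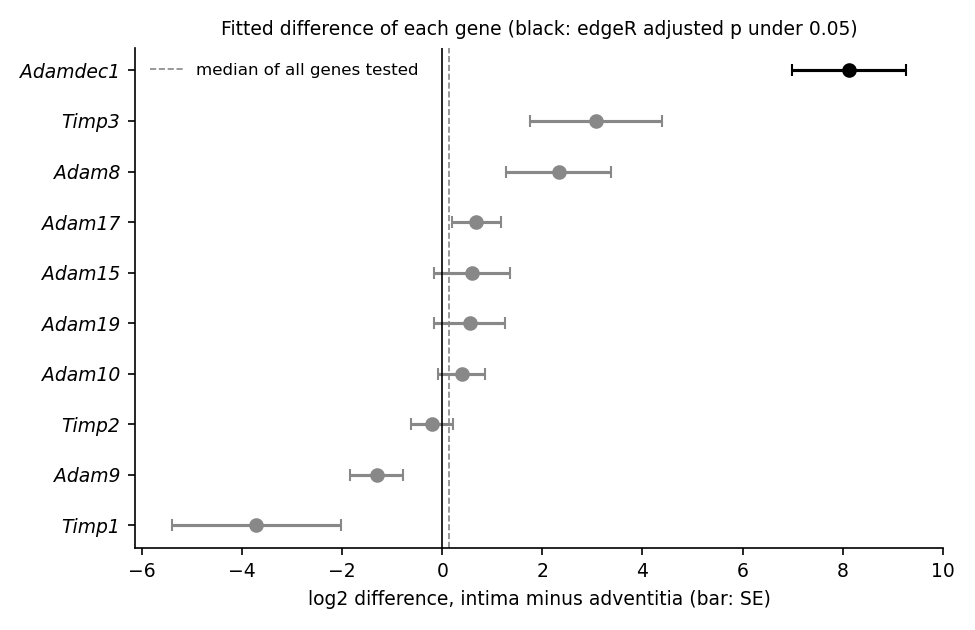
Points are the log2 differences of the 10 genes, intima minus adventitia, from the edgeR fit over all genes, with their standard errors as bars; the dashed line is the median of all genes tested, 0.14. Adamdec1 at 8.13, in black, is the called gene, and Timp3 at 3.06 and Timp1 at -3.71 lie farthest from 0 among the others.

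Levels were compared between genes in RPKM, the CPM per kilobase of gene length. Timp2 was highest in each library, at 142, 96.5 and 99.6 RPKM in the adventitia and 95 and 66.9 RPKM in the intima, and in adventitia replicate 3 Timp1 was level with it at 99.3 RPKM. Adam10 followed in adventitia replicate 2 and in both intima libraries, at 66.8, 65 and 56.6 RPKM. Adamdec1 stood at 17.8 and 54.9 RPKM in the intima, ranked 3 among the 10 in both libraries, and at 0 to 0.246 RPKM in the adventitia. In intima replicate 2 the Adamdec1 level was thus close to that of Adam10.

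Adam10 and Adam17 together supplied 40, 60.7 and 61% of the summed RPKM of the 6 ADAM genes in the adventitia and 66.1 and 62.3% in the intima, adventitia replicate 1 being the low library. The summed RPKM of these 6 genes was 112, 140 and 126 in the adventitia and 121 and 131 in the intima, with overlapping ranges. The 3 inhibitors summed to 189, 114 and 200 RPKM in the adventitia and 96.9 and 80.9 RPKM in the intima. Timp2 alone supplied 75.1, 84.9 and 49.8% of that sum in the adventitia and 98 and 82.7% in the intima. The ratio below compares RNA levels and does not measure inhibition of the ADAM proteases. The ratio of the inhibitor sum to the ADAM sum was 1.68, 0.812 and 1.59 in the adventitia and 0.799 and 0.616 in the intima. The lowest adventitia ratio and the higher intima ratio were nearly equal, and with sums of CPM in place of RPKM the ranges overlapped, at 1.08, 0.548 and 0.751 against 0.590 and 0.454. Splitting 5 libraries into 3 and 2 allows no exact two-sided permutation p under 0.1, so the ratio was not tested.

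**Figure D4:**
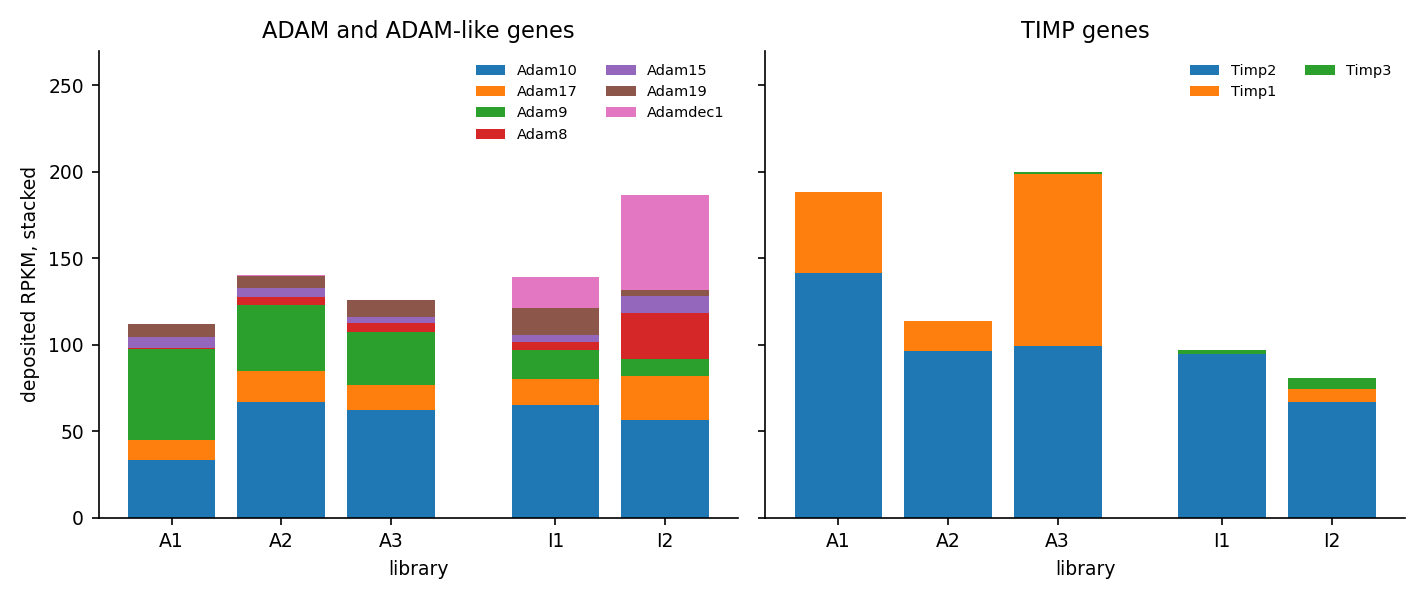
Bars stack the deposited RPKM of the ADAM and ADAM-like genes (left) and of the TIMP genes (right) in each library (A1 to A3, adventitia; I1 and I2, intima), on a shared axis from 0. The 6 ADAM genes sum to 112 to 140 RPKM in all libraries, Adamdec1 adds 17.8 and 54.9 RPKM in the intima, and the TIMP bars are highest in adventitia replicates 1 and 3.

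Genes around these proteases were taken from lists of 95 genes, of which 74 were tested, and 3 were called, all of them matrix metalloproteinases (0.671% of all genes were called). Among 12 tested matrix metalloproteinases, the enzymes that TIMP proteins inhibit, 2 rose and 1 fell in the intima and 9 did not pass. Mmp12, macrophage elastase, rose by 4.69 (SE 0.53, adjusted p = 0.00220 in edgeR), Mmp13, collagenase 3, by 6.28 (SE 0.75, adjusted p = 0.00314 in edgeR), and Mmp3, stromelysin 1, fell by 9.95 (SE 1.44, adjusted p = 0.00845 in edgeR) on the log2 scale. Without adventitia replicate 1 the edgeR adjusted p-values were 0.124, 0.0501 and 0.118, and that of Mmp3 was 0.121 without adventitia replicate 3 and 0.0522 without intima replicate 2. Mmp3 was at 47.5, 42.8 and 327 TMM-scaled CPM in adventitial cells, with 4 reads in the intima libraries together. It passed the filter on low counts only through the adventitia, where it was higher. The fibroblast marker sums given above had the same order within the adventitia, and were lower in the intima; the part of fibroblast RNA in the Mmp3 reads was not tested.

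No other list had a called gene in edgeR. The partners of ADAM10 and ADAM17 are the TspanC8 tetraspanins, which guide ADAM10, and the iRhom proteins with iTAP, which carry ADAM17 to the surface. Of their 8 tested genes, 1 had an unadjusted edgeR p under 0.05, where 22.4% of all tested genes did. DESeq2 called 1 (lower) and limma voom 0, where over all tested genes DESeq2 called 9.14% (3.73% higher, 5.41% lower) and voom 6.26% (1.6% higher, 4.66% lower). The median log2 difference of the list was 0.49. The largest differences in the list were those of Rhbdf1 (iRhom1), at 1.52 to 6.87 TMM-scaled CPM in adventitial cells and 0.078 and 0.1 CPM in intimal cells, and Tspan15, whose intimal levels were 0.0780 and 25.4 CPM. Rhbdf1 is the gene under 0.05, and with 3 intima reads it passed the filter only through the adventitia, where it was higher. The 4 proprotein convertases, which cut the ADAM prodomain, had a median of 0.11, 0 unadjusted p under 0.05 and 0 calls in DESeq2 or voom. Pcsk5, whose intimal levels were 10.1 and 0.0501 TMM-scaled CPM, and Pcsk6, at 0 and 0.401 against 0.697 to 8.52 in adventitial cells, differed most.

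Of 4 listed further inhibitors and clearance genes 2 were tested, both with an unadjusted edgeR p under 0.05 (22.4% of all tested genes), and DESeq2 called both as higher (3.73% of all) while voom called 0. Lrp1, the endocytic receptor that clears TIMP3 and other ligands, was at 75.4, 76.3 and 87.9 TMM-scaled CPM in adventitial cells and 211 and 271 CPM in intimal cells, a log2 difference of 1.59 with an SE of 0.44 that edgeR did not call (adjusted p = 0.0978). Reck, a membrane-anchored inhibitor, was at 0.758 to 5.08 TMM-scaled CPM against 66.8 and 8.02. Among 26 tested shedding substrates, 10 had an unadjusted edgeR p under 0.05, against 22.4% of all tested genes. DESeq2 called 4 of them higher and 2 lower (3.73% and 5.41% of all) and voom 2 higher and 1 lower (1.6% and 4.66% of all), and the median log2 difference was 0.35. Icam1, an adhesion molecule for leukocytes, and Cdh5 differed most among those higher in the intima, with log2 differences of 4.13 and 3.91 (adjusted p = 0.114 and 0.0900 in edgeR). The log2 differences of Icam1 and Cdh5 were 4.86 and 2.59 without intima replicate 1, and 1.56 and 4.62 without intima replicate 2. The size of the Icam1 difference thus depended largely on intima replicate 2, where Icam1 was at 128 TMM-scaled CPM.

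The other ADAM genes and the ADAMTS proteases, secreted relatives that cut matrix proteoglycans and procollagens, are further members of the family. Of 11 other ADAM genes 6 were tested, and none was called by edgeR, DESeq2 or voom (0, 0 and 0). Adam33 was at 27.7, 13.5 and 30.6 TMM-scaled CPM in adventitial cells and 14.7 and 25.0 CPM in intimal cells, and Adam22 at 3.70, 21.1 and 16.7 CPM against 11.9 and 13.9 CPM. Both had overlapping ranges, and they are named here after their values were seen. The 3 with an unadjusted edgeR p under 0.05 were Adam4, Adam11 and Adam12, each with 2 or 3 reads in the intima libraries together, so they passed the filter only through the adventitia, where they were higher. Adam4 and Adam12 had the largest differences, at 0.199 to 4.55 and 0.697 to 2.40 TMM-scaled CPM in adventitial cells and no more than 0.234 CPM in intimal cells. Of 19 ADAMTS genes 16 were tested and 13 had an unadjusted edgeR p under 0.05, where 22.4% of all tested genes did, and DESeq2 called 3 and voom 7 as lower, where they called 5.41% and 4.66% of all tested genes as lower. In 14 of the 16 fewer than 10 reads were counted in the intima libraries together, so these genes could pass the filter only through the adventitia, where no mean was above 11.1 TMM-scaled CPM. Adamts1 was at 1.89 to 10.5 and Adamts15 at 3.70 to 21.1 TMM-scaled CPM in adventitial cells, with 0 reads and 1 read in the intima. Fibroblast markers moved with the groups as given above, and their part in these reads was not tested.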

How the data were processed

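The members, gene lists and tests were chosen with earlier results of these data known. Per the file headers, the authors deposited for each library the read count, CPM and RPKM of 41388 Ensembl genes on GRCm38. Of the tools, STAR 2.0.4b, featureCounts 1.4.5 and Subread are listed in the submitters' processing notes, with no strand setting or annotation release. The deposited CPM and RPKM equalled those computed from the deposited counts (0 mismatches at a tolerance of 1e-06), so tests used the counts. Reads of genes that overlap on opposite strands cannot be told apart. Symbols were found for 40254 IDs, and the 10 members matched 1 ID each.

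Genes were tested with edgeR 4.0.16 in R 4.3.3 (filterByExpr with a minimum count of 10 and total of 15, TMM factors, no covariates, all 5 libraries) after a check on simulated counts. The standard error is the log2 difference over the square root of F. Named genes were all members, the called genes of each list or its largest differences up to 2, and the 5 genes nearest to Adamdec1. Alternatives were other scalings and filters, DESeq2 1.42.0, limma voom 3.58.1, a replicate block and each library left out. A floor of 3 reads is 0.144 to 0.761 CPM. The GENCODE M21 coding bases came from the longest coding transcript with 1 match to the zinc-binding signature or to the TIMP inhibitory edge. The last residue of the signature was searched as histidine in the ADAM genes and as aspartate in Adamdec1. Both searches also fixed further residues of these stretches.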

Additional observations from a re-analysis of the deposited data

How the results depend on the processing

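Over all genes the count of calls was 90 (70 higher, 20 lower in the intima). It was 64 and 26 with DESeq2 size factors in edgeR, 46 and 29 with upper-quartile factors and 59 and 34 with library size alone, and the median log2 difference of all genes was -0.02, -0.35 and -0.09 in place of 0.14. Lower calls outnumbered higher ones in 3 alternatives: of 1225 calls with DESeq2 500 were higher and 725 lower, of 839 with limma voom 214 and 625, and of 396 with 1 CPM in every library of a group 135 and 261. The count was 386 with no filter beyond 1 read (312 higher, 74 lower) and 183 with the replicate block (133 and 50), and 10 to 389 with 1 library left out (10 without adventitia replicate 1, 389 without intima replicate 1). Of the members 0 to 2 were called with 1 library left out and 1 in each other alternative. Of the pathway lists 3 genes were called, 9 with no filter, 7 with 1 CPM in every library of a group, 16 with DESeq2, 14 with voom, 4 with the replicate block and 0 to 5 with 1 library left out. The mean inhibitor to ADAM ratio was 1.36 in the adventitia and 0.707 in the intima from RPKM, and 0.793 and 0.522 from CPM. Signs turned for Adam10 with upper-quartile factors (-0.082), Timp2 with no filter (0.021), Adam19 with voom (-0.066), and Pcsk5 with voom (-0.023) and the block (-0.30). With 1 library left out they turned for Timp2 (-0.72 without intima replicate 1 to 0.18 without intima replicate 2), Adam19 (-1.24 to 1.38), Adam15 (0.93 to -0.021), Pcsk5 (-4.11 to 3.45) and Tspan15 (4.77 to -3.12). The causes were not tested. Replicate numbers 1 and 2 occur in both groups. Deviations of same-numbered libraries from their group means had correlations of 0.0329 and 0.000609. With 2 intima libraries these deviations mirror each other, so the correlations cannot decide whether same-numbered libraries belong together. The block left the called member called. With an intima library left out, the lone one is taken to vary like the other group. At the smallest library, 3 reads are 0.761 CPM, which limits statements on genes near 0 there.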

Other observations

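Some genes outside the naming rule were picked after their values were seen. Mmp10, stromelysin 2, had no read in the adventitia, where 3 reads would be 0.761, 0.298 and 0.298 CPM, and was at 32.7 and 17.7 TMM-scaled CPM in intimal cells (adjusted p = 0.0817 in edgeR). Tnf, the substrate that gave ADAM17 its older name, was at 131 to 176 TMM-scaled CPM in adventitial cells and 251 and 430 in intimal cells. Its log2 difference was 1.13 with an SE of 0.43 (edgeR adjusted p = 0.156). Vcam1 and Axl, a leukocyte adhesion molecule and a receptor for dying cells, were at 73.4 to 142 and 131 to 250 TMM-scaled CPM in adventitial cells and at 406 and 389 and at 563 and 656 in intimal cells. Notch2 and the haemoglobin scavenger receptor Cd163 went the other way, at 516 to 845 and 458 to 642 TMM-scaled CPM against 353 and 197 and against 179 and 23.9. None of these 6 genes was called by edgeR, with adjusted p-values from 0.0817 to 0.156.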
